A study of Mus musculus with 3 samples.

Results

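The genes described here carry the names of SR proteins, SR-related matrix proteins, hnRNP proteins and the SF3a and SF3b proteins. These families are known for their part in pre-mRNA splicing, though not every listed gene encodes a splicing factor. The genes were taken by mouse gene symbol, as every gene of the Srsf, Srrm, Hnrnp, Sf3a and Sf3b series listed in at least 1 of 3 RNA-seq tables. The rule found 46 of 17209 listed genes: 11 Srsf, 5 Srrm, 21 Hnrnp and 9 Sf3a or Sf3b genes. Of these, 42 had a mean of at least 1 CPM, the unit of counts scaled to library size, and were compared. The 4 others were Srsf12, Srrm4, Srrm4os, which is a non-coding RNA named after Srrm4, and Hnrnpa1l2-ps2, which carries the name of a pseudogene. Each of these had at most 2 counts in any library, under the floor of 3 counts, so no fold is given for them.

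The RNA came from mouse epiblast stem cells (EpiSCs) of strain 129 at passage 1, pluripotent cells that resemble the epiblast after implantation. Routine culture was in serum on gelatin, with both inhibitors. For the IWR1 library the cells received 2 µM IWR1 during 12 h. For the Y27 library they received 0.5 µM Y27, also during 12 h. IWR1 is a tankyrase inhibitor that dampens Wnt signalling, and Y27 is the compound named Y27632 in the title of the study. For the NT library both inhibitors were left out overnight, so treatment and withdrawal cannot be told apart in any difference from NT. Each treated library is labelled with 1 inhibitor. In IWR1 over Y27, the presence of 1 inhibitor and the withdrawal of the other therefore cannot be told apart either. Each group had 1 library, so differences below were not tested and have no replicates behind them. The labels do not say whether the cells were pooled or clonal.

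The libraries held 5607725 estimated counts in IWR1, 5459332 in Y27 and 5767550 in NT. All 9 epiblast stem cell markers were listed in every library. Pou5f1 was at 982, 888 and 1070 FPKM, a level scaled by transcript length and library size, in IWR1, Y27 and NT. The 9 markers summed to 3694, 2930 and 3268 CPM, and they were not level between libraries. Folds of IWR1 over NT were 3.28 for Fgf5, 2.32 for Utf1, 2.01 for Otx2, 1.98 for Dnmt3b, 1.65 for Sox2 and 1.42 for Zic2. Those of Pou5f1, Lin28a and Nanog were 0.901, 0.802 and 0.764. For Y27 over NT, 0 of the 9 passed 1.5-fold. Of 5 naive pluripotency markers, 4 were listed anywhere, and Zfp42 had 1 count in IWR1 and was at 0 in Y27 and NT. Fibroblast markers, 7 of 8 listed, summed to 73.6, 61.8 and 121 CPM, with 1 of them, Dcn, at 0 in Y27. Neural markers, 5 of 5 listed, summed to 66.4, 49.6 and 57.3 CPM, with Pax6 at 0 in IWR1 and NT and Neurog2 at 0 in Y27 and NT. Primitive streak and mesoderm markers, 6 of 6 listed, summed to 467, 1984 and 1971 CPM, with Mixl1 at 0 in IWR1. Trophoblast markers, 4 of 5 listed, summed to 112, 295 and 238 CPM. Of these sums Eomes, which is also counted among the primitive streak markers, made up 93.3, 204 and 162 CPM. Cdx2 made up 2.50, 68.8 and 48.3 CPM. Endoderm markers, 3 of 5 listed, summed to 13.2, 12.5 and 17.0 CPM, with Gata4 at 0 in IWR1. The naive markers summed to 15.7, 16.9 and 20.2 CPM. Their part in the splicing gene levels was not tested. The treatments' known readouts, as an added check of the labels, stood at 9.13, 39.6 and 39.2 FPKM for the Wnt target Axin2 and at 109, 47.4 and 152 FPKM for the actin-binding gene Tagln.

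Introns are removed by the spliceosome, a particle of small nuclear RNAs and proteins. SR proteins, which carry an RNA recognition motif and a stretch rich in arginine and serine (the RS domain), bind mainly exons and help the spliceosome choose splice sites. Their RS domains are phosphorylated by the SRPK and CLK kinases. hnRNP proteins coat nascent RNA and often act against SR proteins at the same exon. SF3a and SF3b are parts of the small nuclear ribonucleoprotein that recognises the branch point. Many SR and hnRNP genes hold a poison exon, which introduces an early stop codon when included and sends the transcript to nonsense-mediated decay, so that these proteins limit their own messenger RNA.

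The RS domain can be read from the coding sequence. Adjacent codons for arginine and serine, in either order, were counted in the longest GENCODE coding sequence of each of the 42 compared genes. Srsf genes had a median of 16.9 such pairs per 100 codons (range 4.05 to 23.5, 10 genes), and Srrm genes 6.79 (5.74 to 12.2, 3 genes). Hnrnp genes had a median of 0.994 (0.274 to 2.64, 20 genes) and Sf3a/Sf3b genes one of 0.126 (0 to 0.986, 9 genes). Every compared Srsf and Srrm gene thus had more pairs per codon than any Hnrnp or Sf3a/Sf3b gene, while the Srsf and Srrm ranges overlapped. The window of 30 codons with the most pairs is shown for Srsf10, the Srsf gene with the largest differences below, for Srsf9, which was lower in both treated libraries, and for Srrm2, the highest of the Srrm genes. Capitals mark codons that stand in an arginine and serine pair.
Srsf10, codons 224 to 253: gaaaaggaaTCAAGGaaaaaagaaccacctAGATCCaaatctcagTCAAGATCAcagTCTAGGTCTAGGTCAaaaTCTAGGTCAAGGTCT
Srsf9, codons 172 to 201: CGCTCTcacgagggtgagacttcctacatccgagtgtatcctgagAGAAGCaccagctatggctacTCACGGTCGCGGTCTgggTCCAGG
Srrm2, codons 534 to 563: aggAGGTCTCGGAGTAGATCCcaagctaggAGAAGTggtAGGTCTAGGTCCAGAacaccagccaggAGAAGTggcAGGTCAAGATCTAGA
The Srsf10 window held 12 pairs, that of Srsf9 7 and that of Srrm2 15. Over the whole coding sequence Srsf9 had 9 pairs in 222 codons, the fewest per codon among the 10 compared Srsf genes, and Srsf2 the most, with 52 pairs in 221 codons.

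The promoters of the 2 members with the highest and the 2 with the lowest log2 difference from NT in each treated library are shown, where the RefSeq table (build GRCm38.p6) holds them, from 250 bases before the start to 50 after it. They are Hnrnph1 and Srsf10 among the higher and Srsf9 and Hnrnpl among the lower, and Sf3b5 was the other lower gene. Capitals mark matches, on either strand, to the CCAAT box, the GC box GGGCGG, the ETS-type motif CCGGAAG and the TATA box TATAAA. No pair of these motifs shares its letters in the printed promoters.
Hnrnph1 promoter, chr11:50376740-50377039, plus strand: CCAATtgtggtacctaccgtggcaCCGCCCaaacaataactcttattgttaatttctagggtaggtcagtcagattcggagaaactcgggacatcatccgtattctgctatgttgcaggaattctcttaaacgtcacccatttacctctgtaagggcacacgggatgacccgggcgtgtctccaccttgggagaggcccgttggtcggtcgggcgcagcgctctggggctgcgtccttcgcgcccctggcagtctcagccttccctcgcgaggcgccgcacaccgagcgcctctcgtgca
Srsf10 promoter, chr4:135855821-135856120, plus strand: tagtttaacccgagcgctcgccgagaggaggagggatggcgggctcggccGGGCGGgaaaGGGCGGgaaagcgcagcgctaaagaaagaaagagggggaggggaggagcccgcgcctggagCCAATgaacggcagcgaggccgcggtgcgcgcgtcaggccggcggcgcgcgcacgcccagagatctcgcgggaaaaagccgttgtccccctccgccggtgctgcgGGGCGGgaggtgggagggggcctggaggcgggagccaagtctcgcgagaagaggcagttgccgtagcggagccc
Srsf9 promoter, chr5:115326927-115327226, plus strand: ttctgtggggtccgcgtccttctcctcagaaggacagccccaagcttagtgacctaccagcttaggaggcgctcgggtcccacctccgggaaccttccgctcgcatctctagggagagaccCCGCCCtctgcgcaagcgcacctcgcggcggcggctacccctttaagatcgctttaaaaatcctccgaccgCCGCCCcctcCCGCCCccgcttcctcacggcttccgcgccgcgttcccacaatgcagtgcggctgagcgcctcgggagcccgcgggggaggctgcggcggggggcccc
Hnrnpl promoter, chr7:28810640-28810939, plus strand: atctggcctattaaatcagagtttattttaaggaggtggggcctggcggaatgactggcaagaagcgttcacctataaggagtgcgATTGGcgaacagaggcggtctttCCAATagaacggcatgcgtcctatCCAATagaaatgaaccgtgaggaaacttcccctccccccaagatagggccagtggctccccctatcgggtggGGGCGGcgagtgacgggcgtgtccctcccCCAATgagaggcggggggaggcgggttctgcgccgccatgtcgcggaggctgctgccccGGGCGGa
Promoters of 38 compared members were in the table. CCAAT was in 20 of them (52.6%, against 37.4% of 32851 promoters of the same length) and GGGCGG in 27 (71.1%, against 35.7%). The longer CCGGAAG was in 12 (31.6%, against 8.86%), of which 6 were Sf3a or Sf3b genes, and TATAAA in 5 (13.2%, against 13.6%). The 32851 promoters were the whole table, more than the 17209 listed genes, and were not limited to compared genes as the members were. The shares among promoters of compared genes were not computed, so an excess particular to the members was not tested. Member promoters were rich in G and C, with a median of 63.3% against 52.7% over the whole table, and a promoter match is a description of letters only. All 4 printed promoters held GGGCGG, and their GC contents overlapped: 58% in Hnrnph1 and 71.3% in Srsf10, against 69% in Srsf9 and 60% in Hnrnpl.

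The members are among the more abundant transcripts of these cells. Levels between genes are compared here by the authors' FPKM, which are scaled by length. Together the 46 genes held 1.82% of all counts in IWR1, 1.85% in Y27 and 1.59% in NT. Hnrnpab, which encodes an hnRNP of the A/B group, was the highest, at 680, 609 and 713 FPKM in IWR1, Y27 and NT, and was within the top 0.662%, 0.668% and 0.710% of listed genes. Hnrnpa2b1 and Hnrnpa1, which encode the best known A/B proteins and repress exons, followed, with 463, 508 and 365 FPKM for Hnrnpa2b1 and 411, 441 and 306 FPKM for Hnrnpa1. The ratio of Hnrnpa2b1 to Hnrnpab, a pairing chosen after the values were seen, was 0.682 in IWR1, 0.835 in Y27 and 0.512 in NT, so the levels of these genes lay closest together in Y27.

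Srsf2, which encodes the SR protein SC35, was the highest SR protein gene, at 302, 271 and 261 FPKM in IWR1, Y27 and NT. Below it the compared Srsf genes ran from 174 FPKM (Srsf5 in Y27) down to 34.4 FPKM (Srsf10 in NT). Srrm2, which encodes a large SR-related protein of nuclear speckles, was at 112, 129 and 86.0 FPKM, and Srrm1, which encodes a splicing coactivator, at 76.6, 77.0 and 72.1 FPKM. Srrm3, a neural splicing activator gene, was at 0.850, 1.28 and 1.00 FPKM from 19, 28 and 23 counts, and Srrm4, the other neural one, had 1 count in IWR1, 0 in Y27 and 1 in NT. These cells thus had almost no reads of the Srrm genes known for microexons in neurons.

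The SF3 genes lay closer together than the Hnrnp genes. Sf3b2, Sf3b3 and Sf3b5 led in the IWR1 library with 140, 131 and 132 FPKM. Sf3b6, which encodes the small subunit that contacts the branch point, was lowest, at 38.8, 37.7 and 35.1 FPKM. Sf3b1, the largest subunit and the scaffold of SF3b, was at 56.7, 59.2 and 39.6 FPKM. Its ratio to Sf3b3, a subunit that binds it, was 0.433 in IWR1, 0.492 in Y27 and 0.297 in NT, a pairing chosen after the values were seen.

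**Figure D1:**
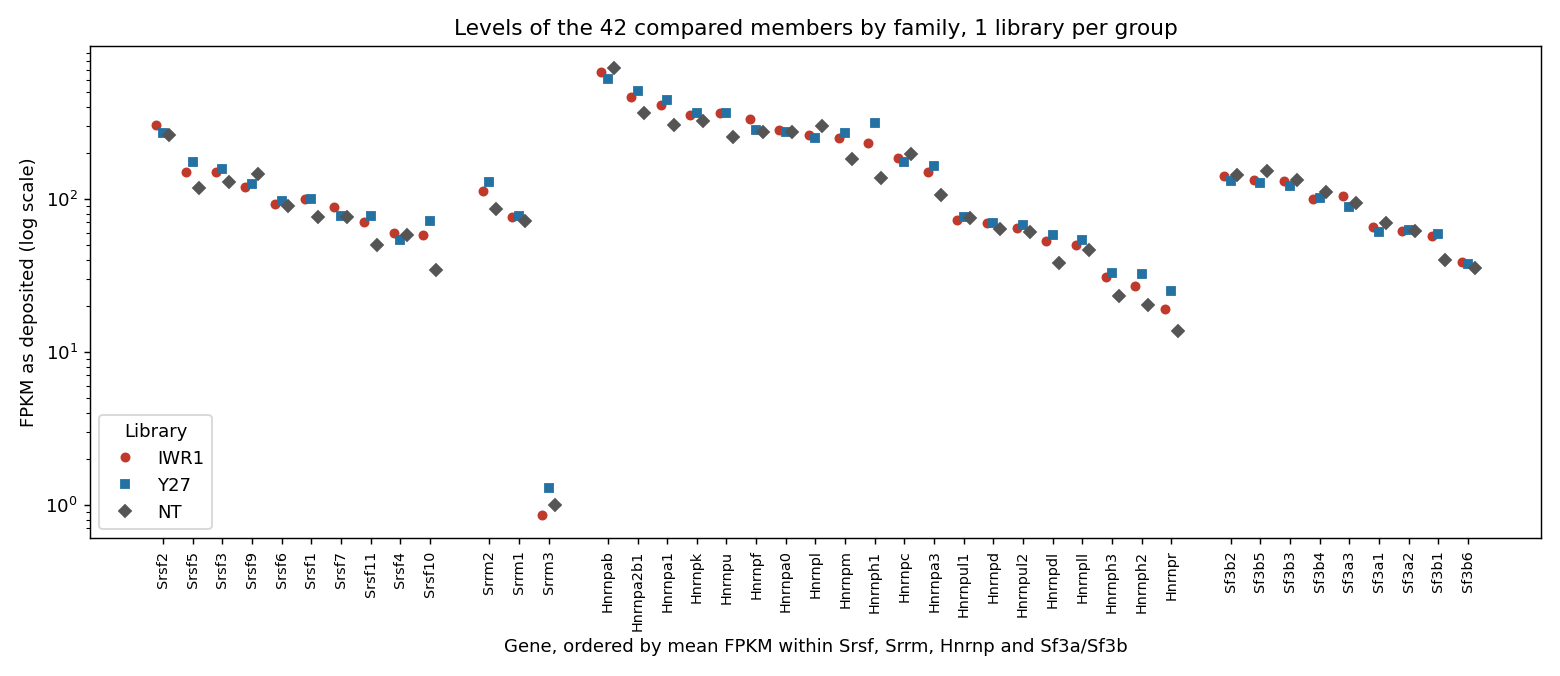
Deposited FPKM (log axis) of the 42 compared genes in the IWR1, Y27 and NT libraries, 1 point per library, ordered by mean FPKM within each family. Hnrnpab was highest in every library, between 609 and 713 FPKM, and Srrm3 lowest, between 0.850 and 1.28 FPKM; points of 1 gene mostly lie close together, with wide gaps for Hnrnph1 and Srsf10.

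IWR1 over NT was the first comparison, on which splicing factor transcripts differ in cells given IWR1. Folds here compare scaled counts, each fold is followed by its exact 95% interval in brackets, for counting error alone, and log2 differences are log2((CPM + 1)/(CPM + 1)). Hnrnp and Srsf transcripts were mostly somewhat higher in IWR1, and the SF3 transcripts mostly near NT. Of the 42 genes, 30 were above NT and 12 below, where 49.7% of all 12955 compared genes were above. The median log2 difference was 0.12, against 0.00 over all genes. At least 1.5-fold higher were 2 members, Hnrnph1 and Srsf10, beside 10.8% of all genes, and 0 were at least 1.5-fold lower, beside 6.37%. At least 2-fold, 0 were higher and 0 lower, beside 2.28% and 2.25%. As in any bulk sample, a lower level can come from fewer cells of a type or from less RNA per cell, which cannot be told apart.

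Among Srsf genes, 9 of 10 were above NT, with a median log2 difference of 0.20. After removal of a dependence on transcript length and GC content, described below, 6 of 10 were, with a median of 0.15. All genes then gave 53.9% above NT and a median of 0.03. Srsf10, which encodes an SR-like protein that represses splicing when dephosphorylated, was at 57.7 FPKM in IWR1 against 34.4 FPKM in NT, 1.63-fold higher (1.47 to 1.81). Srsf11, which encodes an SR-related protein, was at 70.7 against 50.2 FPKM, 1.38-fold higher (1.27 to 1.51). Srsf1, the founding SR protein gene, was at 99.9 against 75.7 FPKM, 1.30-fold higher (1.23 to 1.37), and Srsf5 at 150 against 117 FPKM, 1.26-fold higher (1.16 to 1.36). The log2 differences of Srsf2, Srsf3 and Srsf7 lay between 0.18 and 0.20. Srsf4 and Srsf6 were level with NT, at 0.00 and 0.01, and both turned to -0.04 and -0.03 when counts were scaled by the upper quartile. Srsf9, with the sparse RS stretch shown above, was the 1 Srsf gene that was lower, at 120 FPKM in IWR1 against 145 FPKM in NT, 1.23-fold lower (1.12 to 1.36). Its log2 difference of -0.30 was -0.06 after the removal.

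The 20 Hnrnp genes had a median log2 difference of 0.29, with 16 above NT. After that removal it was 0.12, with 15 above NT, beside 0.03 and 53.9% over all genes. Hnrnph1, whose protein binds runs of G and can silence or enhance exons, stood at 232 FPKM in IWR1 against 137 FPKM in NT, 1.67-fold higher (1.57 to 1.77). Its relatives of the H and F group were higher by less. Hnrnph2 was at 27.03 against 20.34 FPKM and Hnrnph3 at 30.7 against 23.2 FPKM, each 1.30-fold higher (1.11 to 1.53 for Hnrnph2), and Hnrnpf at 335 against 274 FPKM, 1.19-fold higher (1.14 to 1.25). Hnrnph1, Hnrnph2 and Hnrnph3 had fractional counts, so reads may have been shared out among similar genes, and their differences are uncertain to that extent. The same holds for Hnrnpa1, Hnrnpa3, Hnrnpab, Hnrnpc, Hnrnpd, Srrm2 and Sf3b6 in every comparison. Hnrnph1 had 2920 estimated counts in IWR1 against 1769 in NT.

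Genes of the A/B group split before the length and GC dependence was removed. Hnrnpa3 was 1.42-fold higher (1.34 to 1.51), Hnrnpa1 1.28-fold (1.23 to 1.34) and Hnrnpa2b1 1.25-fold (1.2 to 1.30). Hnrnpa0 was at 282 FPKM in IWR1 against 271 FPKM in NT, and Hnrnpab was 1.07-fold lower (1.04 to 1.10). With that dependence removed all of these lay above NT, at log2 differences of 0.32, 0.30, 0.18, 0.21 and 0.05 in the order given. Hnrnpu, which encodes the nuclear matrix and chromatin-bound protein SAF-A, was at 364 against 253 FPKM, 1.41-fold higher (1.36 to 1.46). Hnrnpr, Hnrnpdl and Hnrnpm were 1.38-fold (1.24 to 1.53), 1.36-fold (1.22 to 1.51) and 1.35-fold (1.28 to 1.42) higher. After removal of the length and GC dependence, the log2 differences of Hnrnpu, Hnrnpr, Hnrnpdl and Hnrnpm were 0.11, 0.06, 0.38 and 0.52. Hnrnpk, a KH-domain protein gene, was 1.07-fold higher (1.03 to 1.12), and Hnrnpd, Hnrnpll and Hnrnpul2 had log2 differences of 0.12, 0.09 and 0.06. The members below NT were Hnrnpl, whose protein binds CA repeats, at 262 FPKM in IWR1 against 298 FPKM in NT and 1.16-fold lower (1.10 to 1.21), Hnrnpc, whose protein binds runs of U, 1.08-fold lower (1.02 to 1.13), Hnrnpab and Hnrnpul1.

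Srrm2 was 1.28-fold higher in IWR1 (1.23 to 1.33), and Srrm1 was 1.04-fold higher with an interval that held 1 (0.971 to 1.12). For Srrm3, at 19 counts against 23, the interval of 0.430 to 1.60 allowed a difference either way. Sf3b1 was 1.41-fold higher (1.31 to 1.51), apart from the other 8 SF3 genes, whose log2 differences lay between -0.23 and 0.13. With the length and GC dependence removed Sf3b1 was not apart from them, at 0.06, equal to the SF3 median after that removal. Sf3b5, which encodes the smallest subunit, was at 132 FPKM in IWR1 against 152 FPKM in NT, 1.18-fold lower (1.05 to 1.32), and Sf3b4 at 99.4 against 110 FPKM, 1.13-fold lower (1.04 to 1.24). The SF3 median was -0.05, and it was 0.06 after removal of the dependence on length and GC content described below.

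The second comparison, Y27 over NT, asked the same of cells given Y27, and it shares the NT library with the first. Hnrnph1, Hnrnpr, Srsf10 and Hnrnpa3 were at least 1.5-fold higher in Y27. These 4 of 42 stand beside 14.9% of all compared genes, and 0 members were at least 1.5-fold lower, beside 5.53%. Only Hnrnph1 was at least 2-fold higher, beside 5.58% of all genes, and 0 members were at least 2-fold lower, beside 1.34%. In all 25 of 42 were above NT, where 48.1% of all genes were. The count was 31 of 42 with counts scaled by library total, where 53.3% of all genes were above NT, and 22 of 42 with upper-quartile scaling, where 43.1% were. The median log2 difference was 0.08, against -0.02 over all genes.

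Hnrnph1 stood at 313 FPKM in Y27 against 137 FPKM in NT, from 3827 against 1769 estimated counts, 2.19-fold higher (2.07 to 2.32). Hnrnpf was level, at 282 against 274 FPKM and 0.976-fold (0.931 to 1.02). The ratio of Hnrnph1 to Hnrnpf, a pairing chosen after the values were seen, was therefore 0.693 in IWR1, 1.11 in Y27 and 0.498 in NT, so the order of these 2 genes by FPKM was turned in Y27. Hnrnpr, a paralogue of Syncrip that binds messenger RNA, was at 24.8 against 13.6 FPKM, 1.75-fold higher (1.58 to 1.93), and Hnrnpa3 at 165 against 105 FPKM, 1.59-fold higher (1.5 to 1.69). Hnrnph2, at 32.0 against 20.3 FPKM, was 1.51-fold higher (1.29 to 1.76) and just under the threshold on the log2 scale, at 0.58.

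Hnrnpdl, Hnrnpm, Hnrnpu, Hnrnpa1, Hnrnpa2b1 and Hnrnph3 were between 1.34-fold and 1.46-fold higher in Y27. Lower were Hnrnpl, at 251 FPKM in Y27 against 298 FPKM in NT and 1.24-fold lower (1.18 to 1.30), Hnrnpab, 1.22-fold lower (1.19 to 1.26), and Hnrnpc, 1.18-fold lower (1.12 to 1.24). Hnrnpa0, Hnrnpf and Hnrnpul1 had log2 differences of -0.06, -0.04 and -0.03, which turned to 0.00, 0.02 and 0.03 with scaling by library total. The Hnrnp median was 0.28 over 20 genes, with 14 above NT. After removal of the length and GC dependence it was 0.19, with 12 above NT, beside 0.03 and 54.8% over all genes. Over the Hnrnp genes with whole counts the median was 0.13, and in IWR1 it was 0.18 over those. Hnrnpd, Hnrnpk, Hnrnpll and Hnrnpul2 had log2 differences of 0.07, 0.10, 0.15 and 0.09.

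Srsf10 was at 71.6 FPKM in Y27 against 34.4 FPKM in NT, 1.97-fold higher (1.78 to 2.18). Srsf11 was 1.48-fold (1.36 to 1.61) and Srsf5 1.42-fold (1.32 to 1.54) higher, with 77.4 against 50.2 FPKM for Srsf11 and 174 against 117 FPKM for Srsf5. Srsf1 and Srsf3, whose proteins regulate their own poison exons, were 1.27-fold (1.2 to 1.34) and 1.17-fold (1.10 to 1.25) higher. Srsf2 and Srsf7 were 0.993-fold (0.942 to 1.05) and 0.986-fold (0.904 to 1.08) relative to NT, intervals that held 1, and Srsf6 was 1.03-fold (0.966 to 1.10). Srsf9 was 1.2-fold lower (1.09 to 1.32) and Srsf4 1.13-fold lower (1.01 to 1.25), and both turned to the other side of NT, at 0.07 and 0.11 on the log2 scale, with the length and GC dependence removed. In all 6 of 10 Srsf genes were above NT, and the median was 0.14. After that removal 6 of 10 were again above NT, with a median of 0.09, beside 54.8% and 0.03 over all genes. Srsf10 had the lowest FPKM of the 10 genes in IWR1 and NT, but in Y27 it lay above Srsf4, at 54.0 FPKM.

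Srrm2 was at 129 FPKM in Y27 against 86.0 FPKM in NT, 1.44-fold higher (1.38 to 1.5). Srrm1 and Srrm3 were 1.02-fold (0.953 to 1.10) and 1.23-fold (0.685 to 2.24) relative to NT, intervals that held 1. Of the SF3 genes, 7 of 9 were below NT, with a median log2 difference of -0.19, and of 0.01 with the length and GC trend removed. Sf3b5 was 1.25-fold lower (1.11 to 1.41), Sf3a1, a subunit gene of SF3a, 1.2-fold lower (1.13 to 1.28), and Sf3b3 1.16-fold lower (1.10 to 1.22), with Sf3b2 and Sf3b4 each 1.14-fold lower and Sf3a3 1.12-fold lower, while Sf3a2 was 0.965-fold (0.859 to 1.08). Sf3b1 was again the exception, at 59.2 against 39.6 FPKM, 1.43-fold higher (1.34 to 1.54), but its log2 difference was -0.13 with that trend removed.

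**Figure D2:**
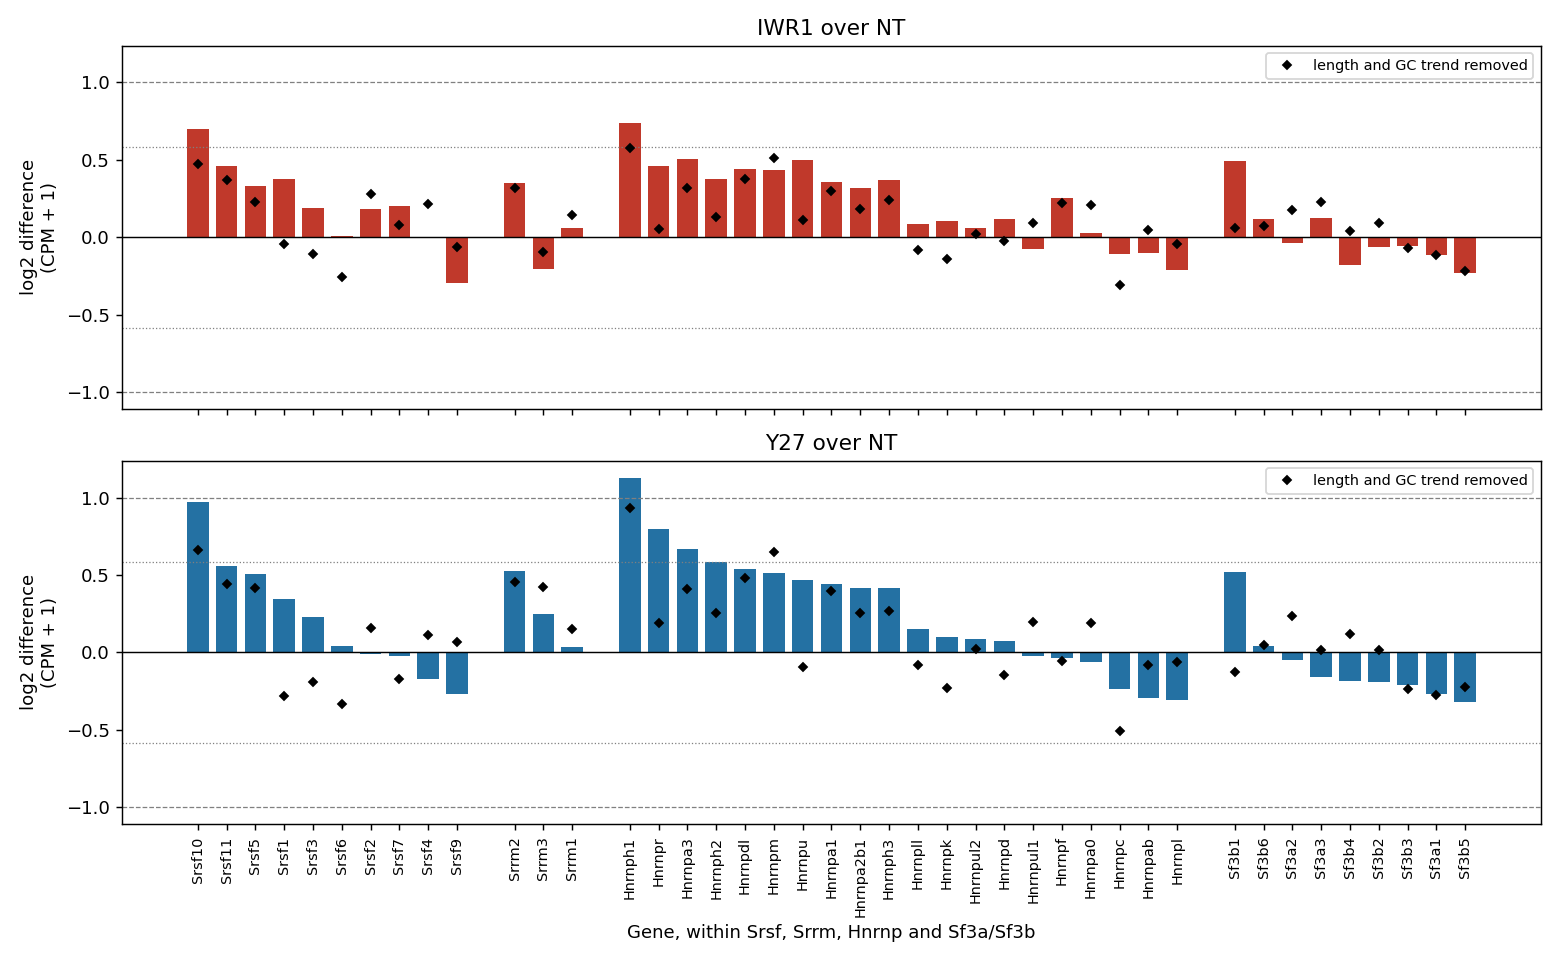
Log2 difference from NT (CPM + 1) of each compared gene in IWR1 (upper panel) and Y27 (lower panel), by family, as bars, with black diamonds for the value after the length and GC trend was removed. Dotted lines mark 1.5-fold and dashed lines 2-fold; Hnrnph1 reached 0.74 in IWR1 and 1.13 in Y27, and no bar passes the lower dotted line.

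The third comparison, IWR1 over Y27, does not use NT, but the presence of 1 inhibitor and the withdrawal of the other cannot be told apart in it. No member differed by 1.5-fold in either direction, beside 5.06% of all genes at least 1.5-fold higher in IWR1 and 8.2% lower. With the length and GC dependence removed the count was also 0, beside 4.94% higher and 7.4% lower. The median log2 difference was -0.01 over the 42 genes and 0.00 over all genes, and 21 of 42 were above 0, beside 50.1% of all genes. The members with the largest differences from NT were lower in IWR1 than in Y27. Hnrnph1 was at 232 FPKM in IWR1 against 313 FPKM in Y27, 1.31-fold lower (1.25 to 1.38), Hnrnpr 1.27-fold lower (1.16 to 1.39) and Srsf10 1.21-fold lower (1.11 to 1.32). Srsf5 and Srrm2 were each 1.13-fold lower, with intervals of 1.05 to 1.22 and 1.09 to 1.17. Srrm3 had the largest log2 difference, -0.45, from 19 counts against 28, and an interval of 0.357 to 1.26 that held 1.

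Other members were higher in IWR1 than in Y27. Hnrnpf was at 335 FPKM against 282 FPKM, 1.22-fold higher (1.17 to 1.28), and Sf3a3 at 104 against 87.7 FPKM, 1.22-fold higher (1.11 to 1.34). Srsf7 was 1.17-fold (1.07 to 1.27) and Srsf2 1.14-fold (1.09 to 1.2) higher. SF3 genes were above Y27 in 8 of 9 cases with a median of 0.09, Sf3b1 being the exception at -0.03. With the length and GC dependence removed 7 of 9 were above Y27, Sf3b1 among them at 0.19. Sf3b2, Sf3b3 and Sf3a1 were 1.10-fold (1.04 to 1.16), 1.11-fold (1.06 to 1.17) and 1.11-fold (1.04 to 1.19) higher before that removal.

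The differences from NT followed the base composition of the transcripts. Over the 42 members, Spearman's rho between GC content and log2 difference was -0.626 in IWR1 over NT and -0.557 in Y27 over NT, and over all 12886 genes with a GC value it was -0.432 and -0.506. The genes share the libraries, so these are descriptions. A surface in transcript length and GC content took up 19.8% of the variance of the log2 differences over all genes in IWR1 over NT, 38.0% in Y27 over NT and 5.12% in IWR1 over Y27. Members were poorer in G and C than most genes, with a median of 46.2% against 50.5%. With all genes cut into 4 equal groups by GC content, 20 of the 42 fell in the lowest group. In that group the median log2 difference in IWR1 over NT was 0.34 for the members and 0.32 for all genes, and in Y27 over NT it was 0.42 and 0.45. In the group with the highest GC content, the 6 members had medians of -0.11 and -0.11 in IWR1 and Y27, and all genes -0.15 and -0.20. Hnrnph1, Srsf10, Hnrnpr and Hnrnpa3 had GC contents of 43.6%, 43.0%, 43.5% and 44.1%, and Srsf9, Hnrnpl and Hnrnpab ones of 56.2%, 53.4% and 52.8%.

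With the trend removed, Hnrnph1 was at 0.58 in IWR1 and 0.94 in Y27, Srsf10 at 0.47 and 0.66, and Hnrnpm at 0.52 and 0.65. The 3 genes Hnrnph1, Srsf10 and Hnrnpm were then at least 1.5-fold higher in Y27, beside 9.21% of all genes, and 0 members were in IWR1, beside 7.4%. None was at least 1.5-fold lower, beside 3.98% in Y27 and 5.47% in IWR1. Hnrnpr and Sf3b1 lost most of their difference, with 0.19 and -0.13 left in Y27 of 0.80 and 0.52. In Y27 17 of the 42 changed sign, 8 to below NT and 9 to above it. Those turned below were Srsf6 (-0.34), Srsf1 (-0.28), Hnrnpk (-0.23), Srsf3 (-0.19), Hnrnpd (-0.15), Sf3b1 (-0.13), Hnrnpu (-0.10) and Hnrnpll (-0.08). Those turned above were Sf3a2 (0.23), Hnrnpul1 (0.20), Hnrnpa0 (0.19), Srsf2, Sf3b4, Srsf4, Srsf9, Sf3a3 and Sf3b2. In IWR1 11 changed sign, with Srsf6, Hnrnpk, Srsf3, Hnrnpll, Srsf1 and Hnrnpd turned below NT, to between -0.26 and -0.02, and Sf3a2, Sf3b2, Hnrnpul1, Hnrnpab and Sf3b4 turned above it, to between 0.04 and 0.18. Hnrnpc, low in G and C at 43.3%, was at -0.31 and -0.51, the lowest of the 42 in both. The long RNAs Malat1 and Neat1, which stay in the nucleus and were set as a check of the RNA, moved in the same direction as Hnrnph1 and Srsf10. Malat1 was at 88.7, 124 and 36.5 FPKM in IWR1, Y27 and NT, and Neat1 at 14.7, 16.6 and 6.72 FPKM. Whether the share of nuclear RNA or the composition of the libraries had a part in the members' differences was not tested.

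**Figure D3:**
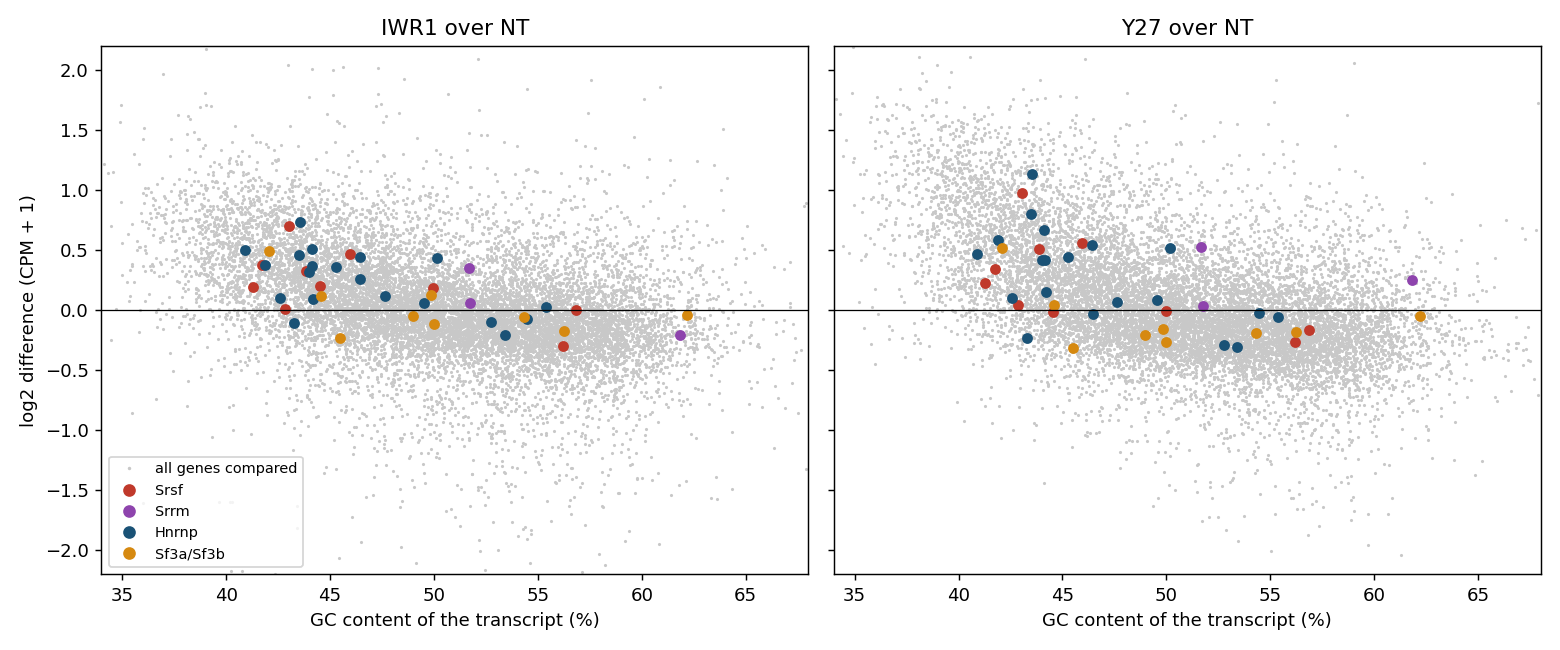
Log2 difference from NT (CPM + 1) against transcript GC content (%) in IWR1 (left) and Y27 (right), with members coloured by family over all 12886 compared genes with a GC value in grey, of which 56 and 31 lie outside the axes. Members lie within the grey cloud and slope down with it, with rho of -0.626 and -0.557.

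The tables also give a transcript length per gene. Among genes listed in every table, it differed between libraries for 0 of 10219 genes with 1 listed RefSeq transcript and, in IWR1 against NT, for 3127 of 4134 with several, as a length weighted by the estimated mix of transcripts would. No source used here says how it was made. Of 19 members with several transcripts, 2 had lengths that differed by at least 1% in IWR1 against NT, beside 30.5% of such genes, and 4 in Y27 against NT, beside 31.3%. The shares over all such genes had no filter on level, while the 19 members were all among the compared genes. Whether the members differ from genes of like level was not tested. Hnrnpa3 had a length of 3298 bases in IWR1, 3421 in Y27 and 3225 in NT, 2.26% and 6.08% above NT. Hnrnpa1 had 1826, 1846 and 1877 bases, 2.73% and 1.65% below NT. In Y27 Srsf7 was 1.67% longer and Srsf10 1.11% shorter. The other members with several transcripts, Srsf1, Srsf3, Srsf9, Hnrnpa2b1 and Hnrnpk among them, shifted by under 1%. Srsf3, Srsf7, Srsf9, Hnrnpa1 and Hnrnpa2b1 each have a transcript with a non-coding (NR) accession listed beside the coding ones. The tables give 1 value per gene, so the share of reads from those forms was not analysed here.

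Partner genes of the splicing pathway, in lists written for this comparison with earlier results of these data known, showed how the families sit among other factors. Of 8 compared kinases that act on SR proteins, 7 were above NT in both treated libraries, beside 49.7% of all genes in IWR1 and 48.1% in Y27. Clk1, a nuclear kinase of RS domains, was at 30.9, 39.4 and 13.8 FPKM in IWR1, Y27 and NT, 2.22-fold (1.83 to 2.70) and 2.84-fold (2.36 to 3.44) above NT. Prpf4b, a spliceosome-associated kinase, was at 26.5, 37.9 and 13.4 FPKM, 1.95-fold (1.71 to 2.22) and 2.71-fold (2.40 to 3.08) above NT, and Clk4 was 1.499-fold (1.15 to 1.96) and 1.65-fold (1.27 to 2.15) above it. Clk3 was the 1 kinase below NT, at 24.6, 29.0 and 29.3 FPKM, and Srpk1, the main cytoplasmic SR kinase, was at 55.7, 54.5 and 47.7 FPKM. In all 2 of 8 kinases were at least 1.5-fold higher in IWR1, beside 10.8% of all genes, and 3 in Y27, beside 14.9%. None was lower by that much, beside 6.37% and 5.53%. With the length and GC dependence removed, 1 remained in IWR1, Clk1 at 0.86, and 2 in Y27, Clk1 at 1.11 and Prpf4b at 0.78. All genes then gave 7.4% and 9.21%. The list's median log2 differences were 0.22 and 0.32, and 0.30 and 0.33 after that removal.

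SR-like and SR-related factors outside the Srsf and Srrm families, 21 genes, had medians of 0.37 in IWR1 and 0.48 in Y27. At least 1.5-fold higher were 6 and 9, beside 10.8% and 14.9% of all genes, and 0 were lower, beside 6.37% and 5.53%. With the length and GC dependence removed the medians were 0.19 and 0.24. The counts higher were then 2 and 2, Luc7l3 and Pnn in each, beside 7.4% and 9.21% of all genes. Luc7l3, a factor of 5' splice site choice, was at 45.7, 62.7 and 21.7 FPKM, 2.07-fold (1.84 to 2.33) and 2.77-fold (2.47 to 3.10) above NT. U2surp was 2.01-fold (1.78 to 2.26) and 2.49-fold (2.22 to 2.79) above NT, Pnn 1.81-fold (1.61 to 2.02) and 2.31-fold (2.08 to 2.58), and Rbm25 1.82-fold (1.65 to 2.01) and 2.05-fold (1.87 to 2.26). Tra2a and Tra2b, the closest relatives of the SR proteins, were at 74.2, 87.2 and 53.8 FPKM and at 114, 121 and 83.1 FPKM. U2af2, which recognises the polypyrimidine tract, was at 196, 175 and 204 FPKM. Ythdc1, which encodes a nuclear reader of methylated RNA, was at 30.2, 38.7 and 20.6 FPKM. GC content was 40.0% in U2surp and 56.1% in U2af2.

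Core snRNP proteins lay near NT or below it, like the SF3 genes. The 21 genes had medians of -0.02 in IWR1 and -0.16 in Y27 (0.02 and -0.04 with the length and GC dependence removed). Above NT were 9 and 3 of 21, beside 49.7% and 48.1% of all genes. In either direction 0 were past 1.5-fold, beside 10.8% and 14.9% of all genes higher and 6.37% and 5.53% lower. Snrpb, a gene of the Sm ring, was at 283, 287 and 353 FPKM, 1.27-fold (1.2 to 1.36) and 1.29-fold (1.21 to 1.37) lower than in NT. Snrpc was at 115, 94.8 and 114 FPKM, 1.26-fold lower in Y27 (1.10 to 1.44). Snrpn, whose protein is close to that of Snrpb and whose counts were partly fractional, was at 191, 144 and 145 FPKM, 1.30-fold higher in IWR1 (1.22 to 1.38) and 0.953-fold in Y27 (0.888 to 1.02). Prpf3 was at 34.4, 31.6 and 27.2 FPKM, Prpf6 at 53.8, 44.9 and 52.8 FPKM, and Snrpd2 at 360, 323 and 383 FPKM.

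Among 31 other splicing regulators, 4 were at least 1.5-fold higher in IWR1 and 8 in Y27, 0 lower in IWR1 and 2 lower in Y27. All genes gave 10.8% and 14.9% higher, and 6.37% and 5.53% lower. The medians were 0.21 and 0.29, and they were -0.01 and 0.00 with the length and GC dependence removed. That left 4 higher and 1 lower in IWR1, beside 7.4% and 5.47% of all genes. In Y27 it left 4 higher and 0 lower, beside 9.21% and 3.98%. Elavl2, an Hu protein gene, was at 3.74, 3.85 and 1.23 FPKM, 3.03-fold (1.94 to 4.87) and 3.04-fold (1.94 to 4.89) above NT. Mbnl1, a regulator that favours splicing patterns of differentiated cells, was at 3.66, 2.59 and 1.26 FPKM, 2.73-fold (1.89 to 4.01) and 1.90-fold (1.29 to 2.85) above NT. After that removal its log2 difference was 0.78 in IWR1 and 0.00 in Y27, against 1.34 and 0.84 before it, and that of Elavl2 was 0.89 and 0.62. Tia1, a U-rich RNA binder, was at 11.9, 15.3 and 6.90 FPKM, Ptbp3 at 13.2, 17.96 and 8.80 FPKM, and Mbnl2 at 2.78, 3.93 and 2.21 FPKM. The log2 difference of Ptbp3 was 0.95 in Y27 and 0.04 after the removal. The 2 that were lower in Y27 were Khdrbs3 and Esrp2, an epithelial splicing regulator, named after their values were seen, at 1.67-fold (1.31 to 2.13) and 1.60-fold (1.13 to 2.28). Ptbp1, the abundant hnRNP I gene, was at 298, 282 and 331 FPKM, 1.13-fold (1.09 to 1.18) and 1.23-fold (1.18 to 1.27) lower than in NT. Rbfox1 was 2.55-fold lower in IWR1 than in Y27 (1.30 to 5.27), on 13 against 33 counts.

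Of 10 nonsense-mediated decay factors, which remove the poison exon forms of SR and hnRNP transcripts, 3 were at least 1.5-fold higher in each treated library, beside 10.8% of all genes in IWR1 and 14.9% in Y27. In both 0 were lower, beside 6.37% and 5.53%. The 3 were Upf2, at 8.70, 13.5 and 3.71 FPKM, 2.30-fold (1.83 to 2.90) and 3.47-fold (2.81 to 4.33) above NT, Upf3b, 1.76-fold (1.30 to 2.40) and 2.79-fold (2.11 to 3.73), and the kinase gene Smg1, 1.65-fold (1.49 to 1.82) and 2.08-fold (1.89 to 2.29). Upf1, the central helicase, was at 42.7, 39.7 and 45.6 FPKM, and Smg5 was 1.21-fold (1.11 to 1.32) and 1.28-fold (1.17 to 1.40) lower. With the length and GC dependence removed, 1 was still 1.5-fold higher in IWR1, Upf2, beside 7.4% of all genes. In Y27 2 were, Upf2 and Upf3b, beside 9.21%, while Smg1 was at 0.24 in IWR1 and 0.32 in Y27. The list's medians were -0.03 and -0.14, and 0.13 and 0.03 after that removal.

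**Figure D4:**
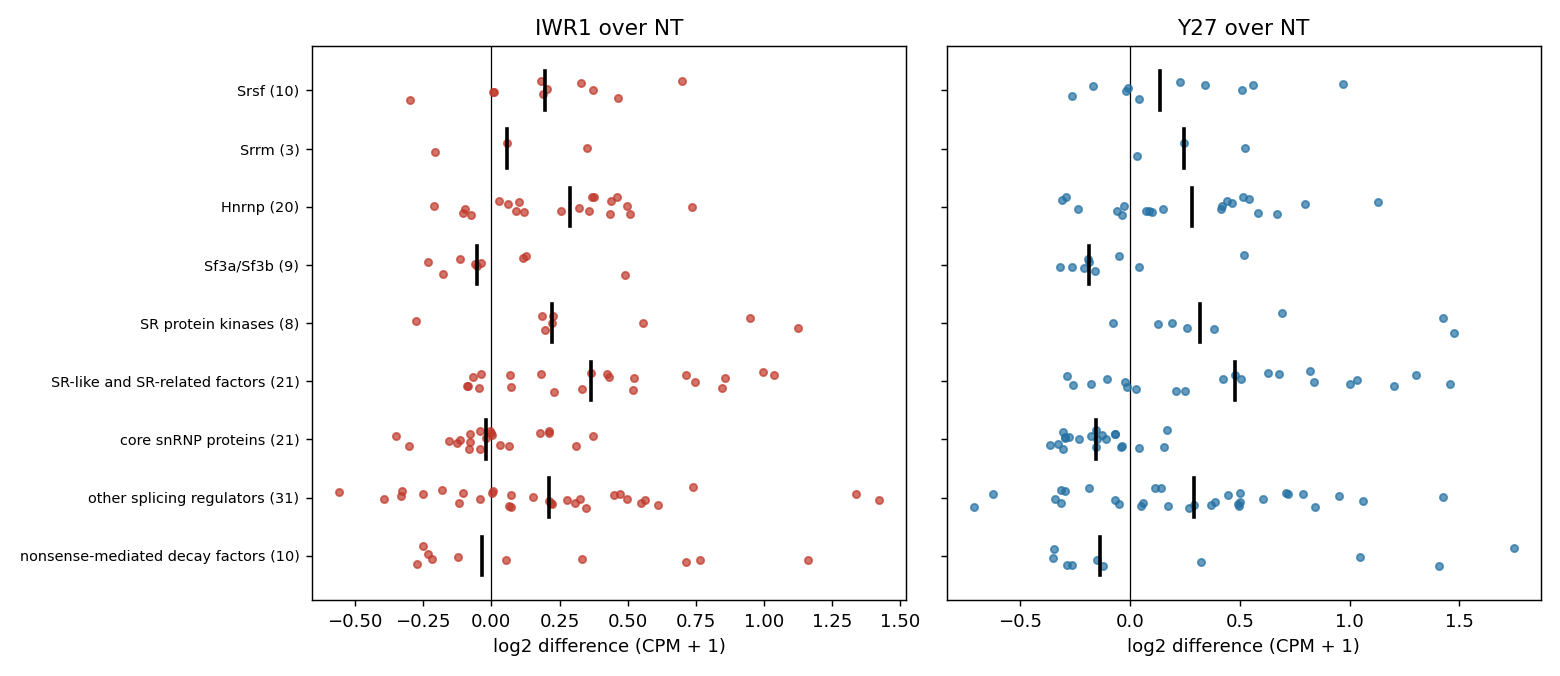
Log2 difference from NT (CPM + 1) of every compared gene, by family and partner list, in IWR1 (left) and Y27 (right), 1 point per gene with its vertical place within a list drawn at random, black bars for medians and list sizes in brackets. Before the length and GC dependence is removed, the SR-like and SR-related median lies highest, at 0.37 and 0.48. Also before that removal, the Sf3a/Sf3b, core snRNP and nonsense-mediated decay medians lie below 0, between -0.02 and -0.19.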

How the data were processed

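Each of 3 tables, 1 per group, gives an expected count, a transcript length and an FPKM value per Entrez gene. The authors deposited each expected count without normalization. FPKM is the authors' own scaling of these by length and library total: recomputed from count, length and sum, 40 of 41 members with over 50 counts came within 2% in every library. The length values, another measure deposited by the authors, are in bases. Per the submitters' processing notes, Bowtie 0.12.2 and mm8 were used. No source used here names the counting tool.

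A gene absent from a table but listed in another was taken as 0. Symbols came from RefSeq annotation of GRCm38.p6 (17160 of 17209 identifiers matched), and GC content and coding sequences from GENCODE transcripts of GRCm38, another assembly than mm8. GC content was found for 99.5% of compared genes and all 42 members. Counts were scaled by TMM factors (0.998, 1.02 and 0.980 in IWR1, Y27 and NT) with edgeR 4.0.16 in R 4.3.3. A pseudocount of 1 CPM and a mean of at least 1 CPM were used. Intervals are exact conditional binomial 95% intervals on rounded counts and cover counting error only. The length and GC dependence was fitted over all genes as a cubic surface of GC percent and log2 length. The steps were tested on simulated data. With 1 library per group there was no test.

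The genes named are those past 1.5-fold, the 4 with the largest differences in each comparison and the 3 highest of each family, and up to 3 of each partner list per comparison. Genes named beyond these were chosen after their values were seen. Members, lists and rules were chosen with earlier results of these data known. Other settings were pseudocounts of 0.1 and 5 CPM, 3 other scalings (DESeq2 1.42.0 size factors among them), 2 other level filters, deposited FPKM, trend removal and whole counts only. Other computations used Python 3.11.15.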

Additional observations from a re-analysis of the deposited data

How the results depend on the processing

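Of the 42 members, 10 had fractional counts, and single-library differences of this size have only counting error behind their intervals. No paired analysis was possible because each group has 1 library. Across settings the members' median log2 difference ran from 0.08 (upper quartile) to 0.15 (library totals) in IWR1 over NT. In Y27 over NT it ran from 0.02 (upper quartile) to 0.14 (library totals), and in IWR1 over Y27 from -0.05 (library totals) to 0.01 (upper quartile). The members' median less that of all genes was 0.126 in IWR1 over NT and 0.102 in Y27 over NT. With the trend removed it was 0.062 and 0.055. No spread of a median between replicates could be measured. No member past 1.5-fold in the reported setting changed direction.

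The count of members past a threshold moved as follows in Y27 over NT. At 2-fold it was 2 with library totals and with FPKM, and 0 with the trend removed. It was also 0 with whole counts only, a setting that leaves Hnrnph1 out. At 1.5-fold it was 4 in the reported setting, 8 with library totals, 7 with FPKM, 5 with a pseudocount of 0.1 and with DESeq2 size factors, 3 with the trend removed, 2 with whole counts only and 4 in the others. In IWR1 over NT the count at 1.5-fold was 0 with the trend removed and 1 with whole counts only. In IWR1 over Y27 it was 0 throughout. With upper-quartile scaling 27 members were above 0 in IWR1 over NT (44.9% of all genes), and with library totals 15 were in IWR1 over Y27 (45.9%).

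Over all genes, the count past 2-fold was 587 in IWR1 over NT, 896 in Y27 over NT and 555 in IWR1 over Y27. It was 1006 in IWR1 over NT and 906 in IWR1 over Y27 with a pseudocount of 0.1, and 178, 382 and 199 in the 3 comparisons with one of 5. A filter at 5 CPM left 368 in IWR1 over NT and 315 in IWR1 over Y27, and FPKM gave 316, 591 and 330. In Y27 over NT it was 384 with the trend removed and 566 with whole counts only. Trend removal moved 70 of 138 family medians and single-gene differences beyond a counting interval, and left 68 within it. Such an interval does not measure the spread of a median. The cause was not tested.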

Other observations

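A further 4 genes once numbered with the SR proteins, chosen after the tables were seen, carry other symbols now: Pnisr, Sfswap, Clasrp and Sugp2. Pnisr, which encodes an SR-related protein, was at 20.8, 26.9 and 8.88 FPKM in IWR1, Y27 and NT, 2.30-fold (1.97 to 2.70) and 2.90-fold (2.49 to 3.37) above NT, further from NT than any of the 42 members. Its transcript had a GC content of 43.9%. Sfswap, Clasrp and Sugp2, with GC contents of 55.4%, 61.5% and 55.7%, had log2 differences of 0.01, 0.10 and 0.05 in IWR1 and of 0.15, 0.12 and 0.33 in Y27. With the length and GC dependence removed, Pnisr was at 0.93 in IWR1 and 1.14 in Y27. Sfswap, Clasrp and Sugp2 were then at 0.18, 0.29 and 0.20 in IWR1 and at 0.37, 0.38 and 0.53 in Y27.

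Summed FPKM of the Hnrnp family was 4353 in IWR1, 4426 in Y27 and 3762 in NT, 1.16 and 1.18 times NT. The Srsf sums were 1191, 1205 and 1036, and the Sf3a/Sf3b sums 829, 788 and 839. The ratio of Hnrnpa1 to Srsf1, antagonists at many exons, was 4.11 in IWR1, 4.42 in Y27 and 4.04 in NT.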
